A study of Mus musculus with 12 samples.

Results

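Hearts of adult mice carrying a heart-muscle deletion of Jarid2 were compared with control hearts at 7 months of age. The comparison used 6 of the 12 poly-A RNA libraries of the study, 3 control and 3 mutant, chosen by the age and genotype in their labels. Controls carried the genotype aMHC +/+;Jarid2 f/f and mutants aMHC C/+;Jarid2 f/f, so that floxed Jarid2 was present on both alleles in every animal and the groups differed by 1 copy of the aMHC transgene. The letter C was read as Cre, a recombinase that removes the floxed segment, driven by the promoter of Myh6, a myosin gene of heart muscle. No group carried the transgene without floxed alleles, and therefore an effect of the transgene alone cannot be told apart from the loss of Jarid2. All animals were on a mixed 129/Svj and C57BL/6 background. RNA came from hearts frozen after isolation, and the labels give neither sex nor chamber. The other 6 libraries are hearts at postnatal day 10 (P10) of the same genotypes, and they serve here to estimate the spread and to ask whether the genotype effect differed with age. The series title names dilated cardiomyopathy in mice lacking Jarid2 in the myocardium, and the comparison asks which transcripts differ in the adult mutant heart. Nothing in the labels ties a replicate number to a litter. The p-values of genes set the genotype difference at 7 months against a spread between hearts estimated over all 12 libraries of both ages.

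Jarid2 encodes a DNA-binding protein that associates with Polycomb repressive complex 2 (PRC2), whose enzymes place methyl groups on lysine 27 of histone H3 and keep developmental genes silent. Adult heart muscle draws most of its energy from fatty acids burned in mitochondria, contracts through a calcium cycle between the cell membrane and the sarcoplasmic reticulum, and repolarises through a set of potassium currents. Failing hearts are known for the return of natriuretic peptides and other fetal genes, for deposition of extracellular matrix by fibroblasts, and for reduced expression of fuel-oxidation genes.

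The 6 libraries held 41924169 to 51114000 estimated counts. Levels are in CPM, counts scaled to a fixed total per library. Heart muscle markers were abundant in every library. The summed level of 12 such markers lay between 68566 and 76114 CPM in the controls and between 52505 and 63266 CPM in the mutants. Of the 12, 3 were called lower and 9 were not called, with a median log2 fold change of -0.22. The sum is weighted to abundant genes, and Myh6 alone differed by -7948 CPM between the group means, mutant minus control. In whole-heart RNA, fewer cells of a type and less RNA per cell cannot be told apart. Xist, the RNA of the inactive X chromosome, was below 1 CPM and the Y-linked gene Kdm5d was detected at 3.53 CPM or more in all 6 hearts. The mitochondrially encoded share of counts was 40.9% ± 5.50 (SD, n = 3) in controls and 37.0% ± 3.60 (SD, n = 3) in mutants (exact two-sided permutation test, p = 0.4). The difference of -3.96 percentage points was -6.96 without control 1, -1.55 without control 2 and -1.97 without mutant 1. None of 5 tested red cell markers was called by edgeR, DESeq2 or limma-voom (0 with an unadjusted p under 0.05), and without control 1 all 5 were called higher in mutants.

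A pair of libraries stood apart. Mutant 1 carried more RNA of atrial muscle genes than the other hearts. Myl7, the atrial regulatory myosin light chain, stood at 3.06, 6.14 and 10.1 CPM in the controls and 216, 9.31 and 14.1 CPM in the mutants. Sarcolipin (Sln), an atrial regulator of the calcium pump, stood at 0.335, 2.46 and 2.94 CPM in the controls and 51.9, 1.62 and 2.04 CPM in the mutants. The same library was high in smooth muscle genes, with Myh11 at 34.5, 30.9 and 51.1 CPM in the controls and 150.4, 24.8 and 32.5 CPM in the mutants and Cnn1 at 1.83, 1.55 and 3.26 CPM in the controls and 32.98, 2.21 and 2.92 CPM in the mutants. Control 1 differed from the other hearts in clock genes. The clock output gene Dbp stood at 148, 26.7 and 50.8 CPM in the controls and 26.6, 41.2 and 32.3 CPM in the mutants, and Arntl, which encodes the activator Bmal1, at 1.06, 14.3 and 9.498 CPM in the controls and 11.7, 8.52 and 10.4 CPM in the mutants. None of Myl7, Sln, Myh11, Cnn1, Dbp and Arntl was called between genotypes. Of 8 tested atrial markers, Nppa and Gja5 rose and Kcnj3 fell. The summed list, Nppa included, stood at 233, 243 and 225 CPM in the controls and 2799, 949 and 2270 CPM in the mutants. Nppa alone held 147, 138 and 113 CPM of it in the controls and 2198, 857 and 2181 CPM in the mutants. The rest of the sum stayed within the range of the controls in mutants 2 and 3 and lay above it in mutant 1. The part of atrial tissue in the other differences was not tested.

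**Figure D1:**
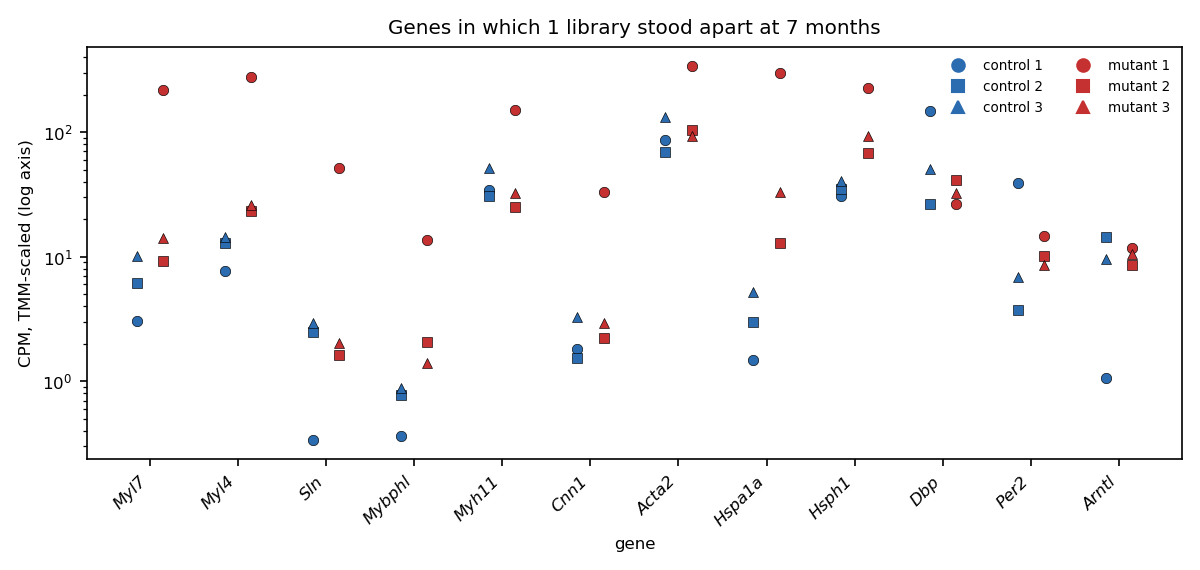
Expression of 12 genes in each heart at 7 months, in TMM-scaled CPM on a log axis, with symbols marking the replicate number and colours the genotype. Mutant 1 lies above the other hearts for the atrial genes Myl7, Myl4, Sln and Mybphl and for Myh11, Cnn1 and Acta2, and control 1 lies above them for Dbp and Per2 and below them for Arntl.

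Of 15478 gene rows tested, 2949 (19.1%) were called, meaning that their p-value adjusted over all rows by the Benjamini-Hochberg method was under 0.05 in edgeR's quasi-likelihood test. There were 1522 rows higher in mutants (9.83% of those tested) and 1427 lower (9.22%). In 5591 rows (36.1%) the groups did not overlap, with mutants above in 2929 (18.9%) and below in 2662 (17.2%). Changes were mostly moderate, with a median of 0.69 among the higher and -0.58 among the lower calls. More than 4-fold differences numbered 112 upward and 36 downward. The number of calls depended on single libraries: it was 1729 without mutant 1, 1638 without mutant 3, 1719 without control 3 and 1909 without control 2, with 1595 to 1751 of the original calls kept in these 4 fits. Without control 1 it was 3330, and without both control 1 and mutant 1 it was 2469. No call changed direction in any of these fits. The genotype effect differed between 7 months and P10 in 1454 rows (9.39%) by the interaction contrast of the same fit.

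**Figure D2:**
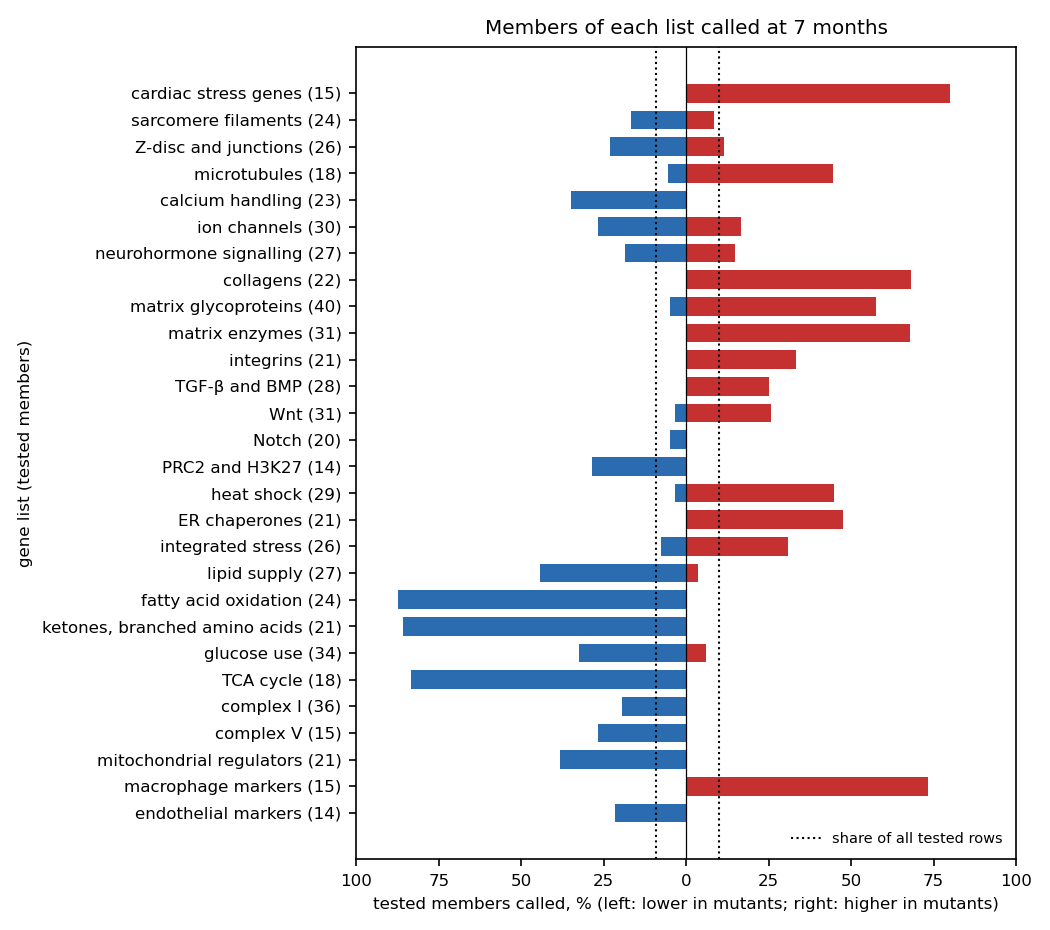
Share of the tested members of 28 gene lists that were called higher (right, red) or lower (left, blue) in mutant hearts at 7 months, with the number of tested members in brackets. The dotted lines mark the shares over all tested rows, 9.83% higher and 9.22% lower. Lists of matrix, macrophage and cardiac stress genes extend to the right, and lists of fuel oxidation to the left. The lists were chosen with earlier results of these data known, so the shares are descriptions.

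Jarid2 itself was lower in mutants. Its row (chr13:44730774-44921643, GRCm38.p6) stood at 17.3, 17.8 and 16.6 CPM in the controls and 13.05, 10.6 and 11.7 CPM in the mutants, without overlap (log2 fold change -0.55 ± 0.11, SE, adjusted p = 0.00369). The remaining transcript amounted to 0.683 times the control level in this whole-heart RNA, which also holds cells in which the Myh6 promoter is not active. The floxed segment was not given in the sources used, and reads outside it would still count. Among 14 tested genes of PRC2 and of histone H3 lysine 27 methylation, 4 fell, the targeted gene Jarid2 among them, and none rose. The share called was 28.6%, against 19.1% of all rows called either way and 9.22% called lower. Epop, a factor that binds PRC2, fell most, from 1.78, 0.802 and 1.47 CPM to 0.222, 0.270 and 0.198 CPM (log2 -2.54 ± 0.35, adjusted p = 5.99e-04). The lysine 27 demethylases Kdm6a and Kdm6b stood at log2 -0.58 and -0.40. The catalytic subunits and core partners were not called: Ezh2 stood at log2 0.09, Ezh1 at -0.21, Eed at 0.11 and Suz12 at -0.29. Leaving out control 2, control 3, mutant 2 or mutant 3 ended the calls of both demethylases, as leaving out mutant 1 did for Kdm6a (highest adjusted p, 0.176), and the count of falls was 2 without control 2, control 3 or mutant 3. Of 20 tested Notch pathway genes, which carry a cell-contact signal used in heart development, 1 was called: the ligand Jag2 at 17.3, 19.6 and 19.2 CPM in the controls and 14.8, 10.8 and 14.5 CPM in the mutants (log2 -0.49, adjusted p = 0.0240, and up to 0.0740 without control 2, control 3 or mutant 2). The receptor Notch1 stood at 29.3, 30.3 and 30.7 CPM in the controls and 36.8, 25.3 and 31.6 CPM in the mutants, with overlap between the groups. The count of Notch genes that fell was 4 without control 1 and 0 without control 2, control 3 or mutant 2, and 1 rose without control 1 or mutant 2.

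Most cardiac stress genes were higher in mutants. Of 15 tested, 12 rose and none fell, with a median log2 fold change of 1.91. The list was chosen with earlier results of these data known, so its count is a description and tests nothing. Nppa (chr4:148000722-148002074), which encodes atrial natriuretic peptide, stood at 147, 138 and 113 CPM in the controls and 2198, 857 and 2181 CPM in the mutants. Mutants 1 and 3 lay close together and mutant 2 lower, and all 3 exceeded every control. The fold change was 13.2 (log2 3.72 ± 0.55, adjusted p = 0.00280). Its neighbour Nppb (chr4:147985786-147987205), the B-type natriuretic peptide gene, stood at 116, 179.7 and 188 CPM in the controls and 1179, 579 and 899.9 CPM in the mutants (log2 2.46 ± 0.33, adjusted p = 0.00113). Ankrd1, a stretch-responsive protein of the sarcomere, made the largest gain in CPM of any called gene: 1078, 1067 and 744 CPM in the controls and 5227, 3428 and 4166 CPM in the mutants (log2 2.15 ± 0.21, adjusted p = 7.17e-05). Its relative Ankrd23 rose by log2 1.24. Gdf15, a circulating stress cytokine, stood at 0.541, 0.885 and 0.735 CPM in the controls and 12.5, 1.98 and 4.96 CPM in the mutants, with mutant 1 well above the others. Ctgf, a matrix-associated growth regulator, stood at 48.5, 52.1 and 55.5 CPM in the controls and 510.0, 111 and 171 CPM in the mutants, with the same library highest. Without mutant 1 their log2 fold changes were 2.29 and 1.45 in place of 3.17 and 2.34. Tnfrsf12a, the receptor of TWEAK, Mybpc2, the fast skeletal form of myosin-binding protein C, Synpo2l, a Z-disc protein, and Rcan1, a calcineurin regulator, rose by log2 1.99, 1.91, 1.74 and 1.56.

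**Figure D3:**
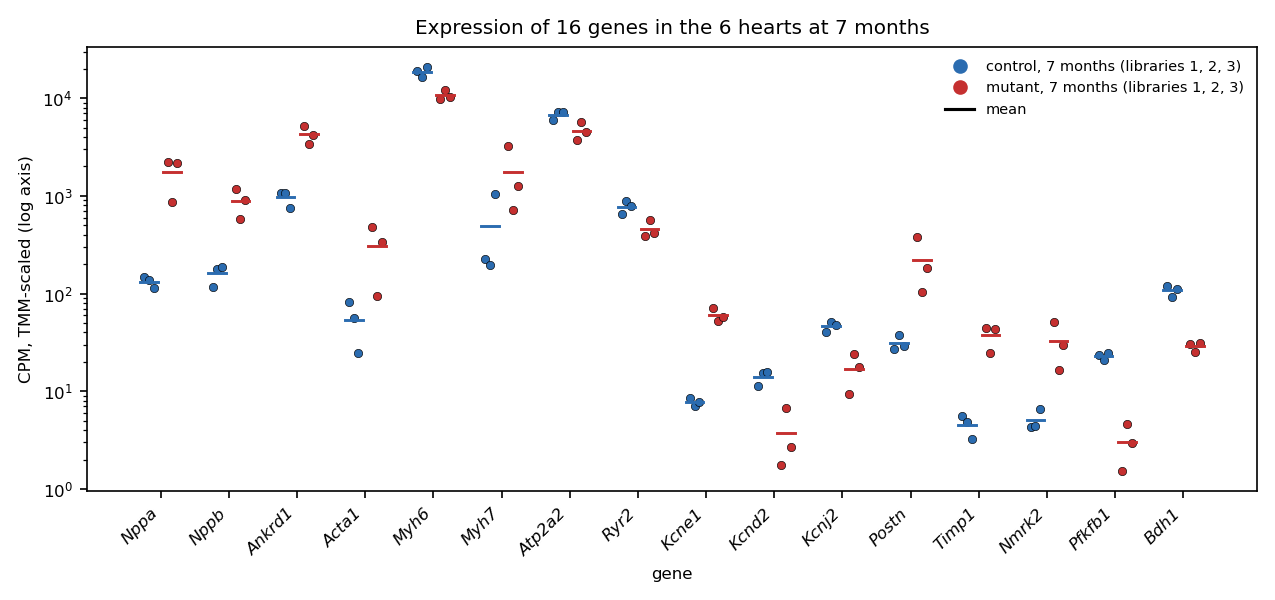
Expression of 16 genes in the 3 control (blue) and 3 mutant (red) hearts at 7 months, in TMM-scaled CPM on a log axis, with short lines at the group means. Nppa, Nppb, Ankrd1, Kcne1, Postn, Timp1 and Nmrk2 are higher in every mutant than in any control, Myh6, Kcnd2, Kcnj2, Pfkfb1 and Bdh1 are lower, and Myh7 overlaps.

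Thick and thin filament genes were called in both directions. Among 24 tested filament genes, 4 fell and 2 rose (25% called, against 19.1% of all rows), with a median log2 fold change of -0.17. Myh6, the adult alpha myosin heavy chain, stood at 18829, 16466 and 20746 CPM in the controls and 9762, 12122 and 10313 CPM in the mutants, which is the largest loss in CPM among called genes (log2 -0.80 ± 0.15, adjusted p = 0.00299). Its promoter is also the one in the transgene. Myh7, the fetal beta chain, stood at 227, 195 and 1051 CPM in the controls and 3270.2, 718 and 1264 CPM in the mutants: control 3 lay above mutant 2, and the difference was not called (log2 1.83 ± 1.05, adjusted p = 0.261). Without control 3 its log2 fold change was 3.05 and without mutant 1 it was 1.03. Per length, in TPM, which counts transcripts scaled to a fixed total, Myh7 made up 1.19%, 1.16% and 4.79% of the sum of Myh6 and Myh7 in controls and 24.98%, 5.56% and 10.9% in mutants. These groups did not overlap (exact two-sided permutation test, p = 0.1, the smallest that 3 against 3 allows). The difference between the means, 11.4 percentage points, was 5.83 without mutant 1. Troponin I shifted as well, the cardiac form Tnni3 standing at 6858, 5266 and 6210.0 CPM in the controls and 3652, 4558 and 4223 CPM in the mutants (log2 -0.56) and the slow skeletal, fetal form Tnni1 at 0.180, 0.304 and 0.294 CPM in the controls and 2.11, 1.89 and 1.98 CPM in the mutants (log2 2.94). On the TPM scale the mean of Tnni1 was 2.097 against 5555 for Tnni3 in the mutants, and the fetal form was the scarcer of the pair. Skeletal alpha actin, Acta1, stood at 81.7, 56.2 and 24.7 CPM in the controls and 482, 94.5 and 336 CPM in the mutants (log2 2.49). Mylk3, the cardiac myosin light chain kinase, and Myh7b fell by 0.55 and 0.53 on the log2 scale. Myosin-binding protein C (Mybpc3) and cardiac actin (Actc1) stood at log2 0.01 and -0.05. Leaving out 1 library ended the calls of Acta1 (control 2, control 3, mutant 1 or mutant 3), Tnni3 (mutant 1), Mylk3 (any but mutant 2) and Myh7b (control 3 or mutant 3) (highest adjusted p, 0.137). That of Acta1 was also lost with the 7-month libraries fitted alone (adjusted p = 0.0909). The count of filament genes that fell was 2 without control 3, mutant 1 or mutant 3, and of those that rose 1 without control 2, control 3, mutant 1 or mutant 3.

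Translation factors included a further pair of growth and adult forms. Eef1a1, the elongation factor of most growing tissues, stood at 1377, 1277 and 1228 CPM in the controls and 2589.9, 2846 and 2854 CPM in the mutants, a tight rise of 2.14-fold (adjusted p = 6.47e-05). Its adult muscle counterpart Eef1a2 stood at 532, 555 and 541 CPM in the controls and 404, 448 and 397 CPM in the mutants (log2 -0.38), a gene named after its values were seen, whose call was lost on leaving out control 2, control 3, mutant 1 or mutant 3 (highest adjusted p, 0.125).

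Some genes that hold heart muscle cells to each other and to the matrix fell. Of 26 tested Z-disc, junction and dystrophin-complex genes, 6 fell and 3 rose (34.6% called, against 19.1% of all rows). Myot, myotilin of the Z-disc, stood at 24.2, 32.7 and 19.2 CPM in the controls and 6.801, 4.51 and 6.54 CPM in the mutants (log2 -2.09 ± 0.22, adjusted p = 9.61e-05). Ctnna3, the alpha-T-catenin of the intercalated disc, stood at 9.14, 12.3 and 11.1 CPM in the controls and 4.98, 4.87 and 3.38 CPM in the mutants (log2 -1.29 ± 0.15, adjusted p = 2.29e-04). Dystrophin, Dmd, which links actin to the membrane, fell by 1.21 on the log2 scale, from 29.9, 46.5 and 36.02 to 19.3, 14.6 and 14.6 CPM. The desmosomal cadherins Dsc2 and Dsg2 fell by 1.02 and 0.80 on the log2 scale. Desmoplakin, Dsp, stood at log2 -0.55 with overlap between the groups, whereas plakoglobin, Jup, stood at -0.01 and was not called. Filamin C, Flnc, rose at log2 0.65, desmin, Des, at 0.40 and plakophilin, Pkp2, at 0.28. The calls of Dsp, Des and Pkp2 were lost on leaving out control 2, control 3, mutant 1 or mutant 3, and that of Pkp2 also without control 1 (highest adjusted p, 0.170). The count of rises was 5 without control 1, 1 without control 2, control 3, mutant 1 or mutant 3 and 6 without mutant 2.

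Most called tubulin genes moved in the other direction. Of 18 tested microtubule genes, 8 rose and 1 fell. The summed level of the list did not rise, at 2177, 2070 and 2464 CPM in the controls and 2192, 2138 and 2074 CPM in the mutants. The rises covered beta tubulins Tubb2b (log2 1.31), Tubb2a (0.82) and Tubb6 (0.60) and the alpha tubulin Tuba1c (0.76). The neuronal beta tubulin Tubb3 was also called, at 3, 1 and 2 counts in the controls and 65, 15 and 23 counts in the mutants, too few in the controls for a stable ratio. The exception was Tuba4a, at 707, 654 and 852 CPM in the controls and 342, 491 and 380.1 CPM in the mutants (log2 -0.87, adjusted p = 0.0146, and up to 0.0598 without control 3, mutant 1 or mutant 3).

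Potassium channels changed strongly and in both directions. Of 30 tested channel genes, 8 fell and 5 rose (43.3% called, against 19.1% of all rows). Kcne1 (chr16:92346001-92359468), the accessory subunit that slows the Kcnq1 channel, had the smallest adjusted p of the whole comparison. It stood at 8.598, 7.08 and 7.705 CPM in the controls and 71.01, 51.98 and 57.8 CPM in the mutants, with narrow groups far apart, a 7.72-fold rise (log2 2.95 ± 0.13, adjusted p = 6.28e-08). Kcnq1, its pore-forming partner, stood at 40.6, 38.4 and 41.3 CPM in the controls and 40.9, 48.5 and 37.7 CPM in the mutants and was not called. At P10 the log2 difference of Kcne1 between genotypes was 0.25.

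Kcnd2 and Kcnd3, genes of the transient outward current, fell. Kcnd2, a pore subunit of that current, stood at 11.2, 15.5 and 15.7 CPM in the controls and 1.78, 6.78 and 2.700 CPM in the mutants, with mutant 2 nearest the controls (log2 -1.91 ± 0.40, adjusted p = 0.00885, and log2 -2.66 without mutant 2), and the 7-month libraries alone gave an adjusted p of 0.0544. Kcnd3 stood at log2 -0.60, and the accessory subunit Kcnip2 at -0.24, not called. Kcnv2, a silent modifier subunit, stood at 13.7, 14.1 and 10.9 CPM in the controls and 1.73, 5.57 and 4.13 CPM in the mutants (log2 -1.76 ± 0.41).

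The inward rectifier genes Kcnj2, Kcnj11 and Kcnj3 fell. Kcnj2, the main subunit of the current that sets the resting potential, stood at 40.6, 50.6 and 47.9 CPM in the controls and 9.42, 23.98 and 17.7 CPM in the mutants (log2 -1.44 ± 0.26, adjusted p = 0.00459). Kcnj11, the pore of the ATP-sensitive channel, stood at 77.4, 75.6 and 72.99 CPM in the controls and 29.5, 36.04 and 26.7 CPM in the mutants (log2 -1.29 ± 0.10, adjusted p = 1.29e-05). Kcnj3, a subunit of the acetylcholine-activated channel, stood at 58.7, 65.8 and 64.7 CPM in the controls and 21.3, 37.9 and 24.9 CPM in the mutants (log2 -1.17 ± 0.17).

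Scn4b, a sodium channel accessory subunit, fell (log2 -0.98). The skeletal pore gene Scn4a stood at log2 -1.24. The main ventricular connexin gene Gja1 stood at log2 -0.07, not called. Cacna1g, a T-type calcium channel, rose at 11.6, 10.2 and 10.5 CPM in the controls and 38.7, 21.8 and 18.4 CPM in the mutants (log2 1.29 ± 0.23). Gja5 and Kcna5 rose by log2 0.55 and 0.38, Gja5 with overlap between the groups. The calls of Scn4a, Scn4b, Kcnd3, Gja5 and Kcna5 were each lost on leaving out control 2 or without mutant 3, and all but that of Scn4b without mutant 1 (highest adjusted p, 0.168). Without control 1 those of Kcnd3 and Gja5 were lost, and without control 3 those of Kcnd3 and Kcna5. The count of channel genes that fell was 5 without mutant 3, and of those that rose 3 without control 2, mutant 1 or mutant 3.

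Calcium cycling genes fell without an exception among those called. Of 23 tested, 8 fell and none rose (34.8% called, against 19.1% of all rows either way and 9.22% lower). Ryr2, the release channel of the sarcoplasmic reticulum, stood at 655, 877 and 784 CPM in the controls and 384, 566 and 417 CPM in the mutants (log2 -0.76 ± 0.17, adjusted p = 0.00900). Hrc, which binds calcium inside that store, stood at 972, 981 and 1016 CPM in the controls and 509, 797 and 614 CPM in the mutants (log2 -0.63). Cacna1c, the pore of the L-type channel that triggers release, stood at 133, 131 and 129.6 CPM in the controls and 86.5, 97.3 and 88.2 CPM in the mutants (log2 -0.53 ± 0.10, adjusted p = 0.00412). Triadin, Trdn, fell by 0.46 on the log2 scale. Atp2a2, the pump SERCA2 that refills the store, stood at 6020.5, 7187 and 7146 CPM in the controls and 3761, 5697 and 4467 CPM in the mutants (log2 -0.55 ± 0.18, adjusted p = 0.0451). Its inhibitor phospholamban, Pln, stood at log2 -0.45 and was not called, and calsequestrin, Casq2, at 0.09. Itpr2, Cacnb2 and the sodium-calcium exchanger Slc8a1 stood at log2 -0.47, -0.41 and -0.41, Slc8a1 with overlap between the groups. The calls of Atp2a2, Itpr2, Cacnb2 and Slc8a1 were lost on leaving out control 3 or mutant 3, and those of Atp2a2, Cacnb2 and Slc8a1 without mutant 1 (highest adjusted p, 0.182). Without control 2 those of Atp2a2 and Slc8a1 were lost, without control 1 that of Cacnb2 and without mutant 2 that of Itpr2. The count of falls was 4 without control 3 or mutant 3 and 5 without mutant 1.

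**Figure D4:**
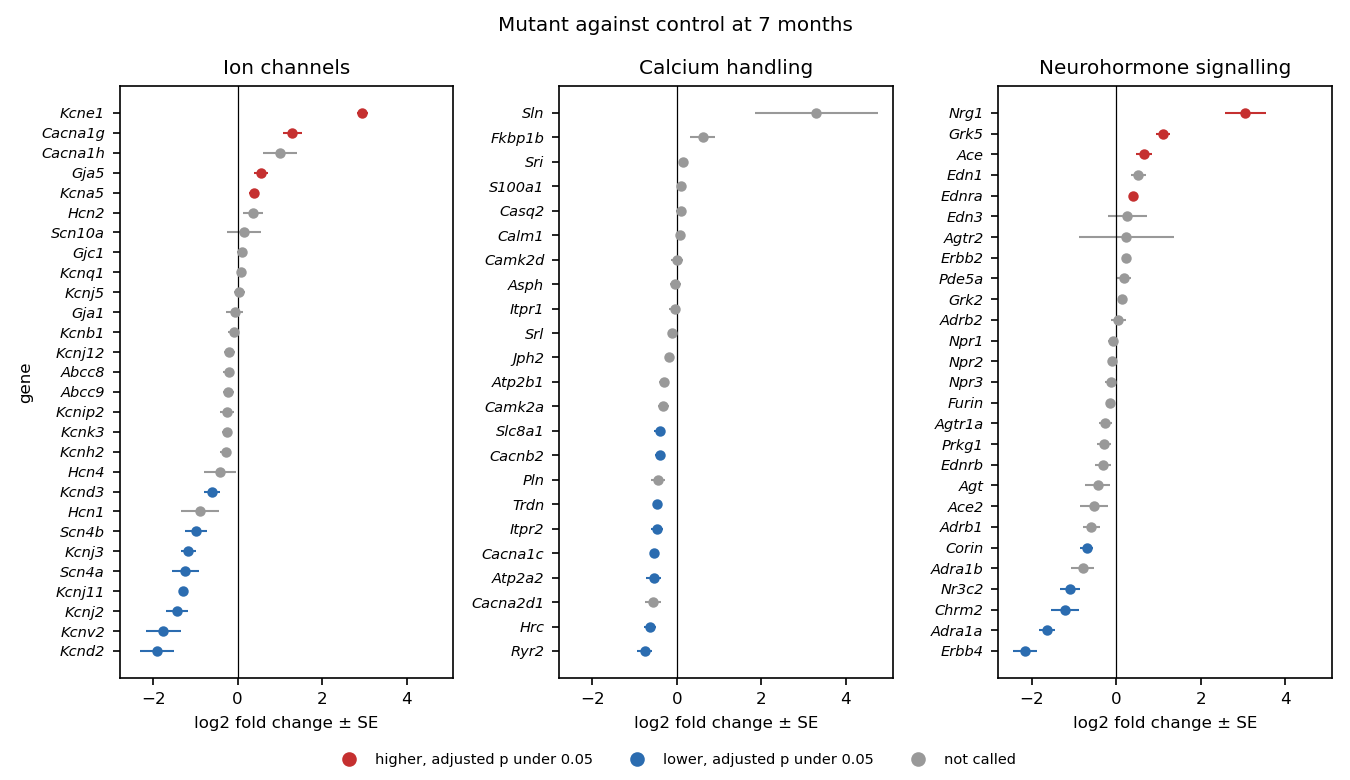
Log2 fold change, mutant over control at 7 months, with its standard error, for tested genes of 3 lists: ion channels, calcium handling and neurohormone signalling. Kcne1 and Nrg1 stand highest among called genes and Kcnd2 and Erbb4 lowest, and Sln, high in mutant 1 alone, carries a wide error.

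Among stress hormone and growth signal genes, several receptors fell. Of 27 tested genes, 5 fell and 4 rose. Erbb4, the neuregulin receptor of heart muscle, stood at 4.402, 5.89 and 5.41 CPM in the controls and 1.33, 1.49 and 0.703 CPM in the mutants (log2 -2.15 ± 0.28, adjusted p = 4.27e-04). Its ligand gene Nrg1 stood at 0.206, 0.194 and 0.294 CPM in the controls and 2.58, 1.08 and 2.17 CPM in the mutants (log2 3.06 ± 0.48, adjusted p = 0.00124), and the co-receptor Erbb2 at log2 0.22, not called. Adra1a, an alpha-adrenergic receptor, stood at 8.47, 10.3 and 8.56 CPM in the controls and 2.73, 3.43 and 2.59 CPM in the mutants (log2 -1.64 ± 0.19, adjusted p = 2.25e-04). The muscarinic receptor Chrm2 and the mineralocorticoid receptor Nr3c2 fell, at log2 -1.21 and -1.103. The beta-adrenergic receptor Adrb1 was at log2 -0.59, not called. Grk5, a kinase that desensitises such receptors, stood at 12.8, 17.98 and 16.4 CPM in the controls and 41.3, 25.2 and 34.8 CPM in the mutants (log2 1.102 ± 0.17). Corin, the protease that activates atrial natriuretic peptide, stood at 143, 139 and 132 CPM in the controls and 66.4, 109 and 80.2 CPM in the mutants (log2 -0.70), opposite in direction to its substrate gene Nppa. Ace, the angiotensin-converting enzyme, and the endothelin receptor Ednra rose by log2 0.65 and 0.41. Dbh, which makes noradrenaline, was the 1 called gene of 5 tested nerve and Schwann cell markers, at 3.32, 4.397 and 3.79 CPM in the controls and 12.1, 19.5 and 15.1 CPM in the mutants (log2 2.02 ± 0.21). Calls were lost for Chrm2 (control 2, mutant 1 or mutant 3), Ednra (control 2) and Ace (any but mutant 2) (highest adjusted p, 0.121). The count of rises was 2 without control 2.

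Extracellular matrix genes rose in large numbers. Of 22 tested collagens 15 rose and none fell, of 40 matrix glycoproteins and proteoglycans 23 rose and 2 fell, and of 31 matrix enzymes and inhibitors 21 rose and none fell. The median log2 fold changes were 1.09, 1.02 and 0.91. Among collagens, the fibril genes Col1a1 and Col3a1 stood at 35.8, 66.6 and 58.5 CPM in the controls and 191, 105 and 133 CPM in the mutants and at 108, 255 and 199 CPM in the controls and 565, 438 and 472 CPM in the mutants (log2 1.41 ± 0.26 and 1.39 ± 0.24). The largest relative changes were in scarce collagens. Col8a2 stood at 0.335, 0.415 and 0.323 CPM in the controls and 6.16, 1.37 and 2.28 CPM in the mutants (log2 3.18), Col12a1 at log2 2.15, Col8a1 at 1.75 and Col14a1 at 1.49. Col11a1 was called at 1, 1 and 1 counts in the controls and 40, 9 and 22 counts in the mutants. Without mutant 1 the log2 fold changes were 2.36 for Col8a2 and 1.29 for Col12a1, and the call of Col12a1 was lost on leaving out control 1, control 2 or control 3 (highest adjusted p, 0.0584).

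Periostin, Postn, a matricellular protein of activated fibroblasts, stood at 27.3, 37.7 and 29.3 CPM in the controls and 378, 103 and 181 CPM in the mutants (log2 2.81 ± 0.42, adjusted p = 0.00243). Tenascin C, Tnc, which marks injured myocardium, was tighter, at 1.06, 1.71 and 1.32 CPM in the controls and 9.76, 8.05 and 9.75 CPM in the mutants (log2 2.75 ± 0.21, adjusted p = 1.29e-05). Cilp, a cartilage matrix protein also made by cardiac fibroblasts, stood at 3.11, 4.29 and 3.41 CPM in the controls and 84.7, 27.7 and 51.3 CPM in the mutants (log2 3.92 ± 0.41, adjusted p = 5.11e-04). The microfibril genes Ltbp2, Mfap4 and Mfap5 rose by log2 3.63, 3.06 and 2.495, and Adamtsl2, a microfibril-associated protein, by 3.37. Mutant 1 was the highest library for Postn, Cilp, Ltbp2, Mfap4 and Mfap5. Without it log2 was 2.19 for Postn, 2.91 for Ltbp2 and 2.36 for Mfap4, and those calls held. Thbs2 and Ltbp1 were the 2 that fell, by 0.55 and 0.42 on the log2 scale. Leaving out control 2, control 3 or mutant 3 ended both calls, as did leaving out mutant 1 for Thbs2 and mutant 2 for Ltbp1 (highest adjusted p, 0.139).

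Timp1, an inhibitor of matrix metalloproteinases, stood at 5.53, 4.84 and 3.23 CPM in the controls and 44.1, 24.9 and 43.1 CPM in the mutants (log2 3.04 ± 0.27, adjusted p = 8.06e-05). The gelatinase gene Mmp2 rose by log2 0.91. Cross-linking and processing enzymes rose too, with Loxl1 at log2 1.44, the procollagen protease Adamts2 at 1.32 and its enhancer Pcolce at 1.19 (57.5, 59.7 and 61.3 CPM in the controls and 152, 117 and 137 CPM in the mutants). Lox stood at log2 1.87, a call lost on leaving out control 1, control 2, mutant 1 or mutant 3 (highest adjusted p, 0.0733). Among 21 tested integrins and adhesion genes, 7 rose and none fell, led by Itgbl1 at 7.65, 8.79 and 7.09 CPM in the controls and 43.5, 16.5 and 33.4 CPM in the mutants (log2 1.99). That count was 4 without control 1 or control 2, 2 without control 3 and 3 without mutant 1.

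Some genes of growth factor pathways that act on fibroblasts rose, antagonists among them. In the TGF-β and BMP list, 7 of 28 tested genes rose and none fell (25% called, against 19.1% of all rows either way and 9.83% higher). The follistatin-like genes Fstl3 and Fstl1 stood at 2.78, 2.18 and 2.76 CPM in the controls and 21.3, 7.35 and 14.5 CPM in the mutants and at 77.5, 94.5 and 77.8 CPM in the controls and 354, 172 and 229.7 CPM in the mutants (log2 2.48 ± 0.34 and 1.596 ± 0.21). The ligands Tgfb2 and Tgfb3 rose by log2 0.93 and 0.80, while Tgfb1 stood at 16.1, 14.3 and 14.9 CPM in the controls and 20.6, 13.01 and 17.02 CPM in the mutants, with overlap. In the Wnt list, 8 of 31 tested genes rose and 1 fell (29.0% called, against 19.1% of all rows). Secreted antagonists led: Dkk3 stood at 3.94, 2.05 and 2.499 CPM in the controls and 62.8, 6.72 and 10.6 CPM in the mutants, with mutant 1 far above the others, and Sfrp2 and Frzb rose by log2 1.73 and 1.52. The receptor Fzd2 rose by log2 1.59 and Fzd4, a receptor of vessel endothelium, fell by 0.98. Without mutant 1 the log2 fold change of Dkk3 was 1.62 in place of 3.23. Without control 1, control 2 or control 3 the calls of Dkk3 and Sfrp2 were lost, and without mutant 1 or mutant 3 that of Sfrp2 (highest adjusted p, 0.108). The 7-month libraries alone and limma-voom also ended the call of Dkk3 (adjusted p = 0.103 and 0.125). In the Wnt list the count of rises was 5 without control 1, control 3, mutant 1 or mutant 3 and 4 without control 2, and of falls 2 without control 1.

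Markers of the cells known to make these products were compared next. Of 12 tested fibroblast markers 5 rose and none fell, with a median log2 fold change of 0.42 and a range from 0.01 to 3.06. The identity genes Pdgfra and Ddr2 stood at the low end of that range, at log2 0.01 and 0.01, not called. Summed over the list, fibroblast markers ran from 2275 to 2917 CPM in controls and from 3034 to 3515 CPM in mutants. Markers of activated fibroblasts ran from 144 to 195 CPM and from 301 to 992 CPM, and 8 of 11 rose. Several genes of that list are matrix genes counted above.

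Macrophage markers rose, 11 of 15 tested, and none fell. Lyz2, lysozyme, stood at 139, 145 and 112 CPM in the controls and 234, 258 and 268 CPM in the mutants (log2 0.94 ± 0.14, adjusted p = 8.23e-04). Complement C1qb rose by log2 0.96 and the receptor Csf1r, which defines the lineage, by 0.50. Summed macrophage markers lay between 396 and 514 CPM in controls and between 772 and 850.1 CPM in mutants. The count of rises was 6 without control 3 or mutant 3. No marker of T cells, B cells, neutrophils or mast cells was called by edgeR among 7, 4, 5 and 5 tested. DESeq2 and limma-voom also called 0, but edgeR called 3 mast cell markers without control 3 and 1 neutrophil marker without mutant 2, all higher in mutants. In the fit of all libraries an unadjusted p under 0.05 was reached by 0, 0, 1 and 1 of them. Of 31 tested cytokine genes 12 rose and 1 fell. Spp1, osteopontin, stood at 0.849, 0.885 and 0.970 CPM in the controls and 4.87, 3.36 and 3.69 CPM in the mutants (log2 2.14 ± 0.23), the chemokine Ccl8 at 11.02, 10.3 and 3.91 CPM in the controls and 17.5, 29.3 and 35.7 CPM in the mutants, and Lgals3, galectin-3, rose by log2 1.42. The inflammatory cytokines Il1b and Tnf stood at log2 0.22 and -0.04, not called. Cxcl12 fell by 0.49 on the log2 scale.

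Of 14 tested endothelial markers, 3 fell and none rose. The share called, 21.4%, compares with 19.1% of all rows called either way and 9.22% called lower. Kdr, the main VEGF receptor, stood at 77.7, 172 and 157 CPM in the controls and 66.2, 71.1 and 68.5 CPM in the mutants (log2 -0.98 ± 0.22, adjusted p = 0.0110). Control 1 lay close to the mutants for this gene. Flt1 and Aplnr fell by 0.71 and 0.72 on the log2 scale, and the junction gene Pecam1 stood at log2 -0.33, not called. Without control 1 the count of falls was 7.

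Of heat shock genes, 13 of 29 tested rose and 1 fell, against 6 and 0 with the 7-month libraries fitted alone. In the endoplasmic reticulum (ER), 10 of 21 tested chaperone and stress genes rose and none fell. Sequences upstream of 6 of the risen genes are shown because each holds the letters of an element known for the corresponding stress factor. They are the 250 bases before the gene start, in RefSeq's GRCm38.p6 promoter set, 5′ to 3′ on the gene's strand. The bases just after the start were found in a GENCODE transcript of the same gene for each but Dnaja1. The start of Dnaja1 rests on the promoter set alone. Capitals in the first 3 mark GAANNTTC, a pair of facing units of the heat shock element, and in the other 3 the ER stress element, CCAAT and CCACG with 9 bases of any kind between them, each read on either strand.
Hspa1a, chr17:34972157-34972406, minus strand: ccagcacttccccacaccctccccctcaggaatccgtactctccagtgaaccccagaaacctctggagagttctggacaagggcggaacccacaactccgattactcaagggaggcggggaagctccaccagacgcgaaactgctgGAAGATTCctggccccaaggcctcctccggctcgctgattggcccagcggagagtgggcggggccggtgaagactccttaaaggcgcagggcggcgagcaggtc
Dnaja1, chr4:40722218-40722467, plus strand: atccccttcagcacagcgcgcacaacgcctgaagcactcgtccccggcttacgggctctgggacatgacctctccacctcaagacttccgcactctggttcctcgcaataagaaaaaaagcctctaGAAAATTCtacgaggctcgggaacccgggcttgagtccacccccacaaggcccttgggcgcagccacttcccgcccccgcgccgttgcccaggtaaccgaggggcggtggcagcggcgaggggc
Hspb1, chr5:135887669-135887918, plus strand: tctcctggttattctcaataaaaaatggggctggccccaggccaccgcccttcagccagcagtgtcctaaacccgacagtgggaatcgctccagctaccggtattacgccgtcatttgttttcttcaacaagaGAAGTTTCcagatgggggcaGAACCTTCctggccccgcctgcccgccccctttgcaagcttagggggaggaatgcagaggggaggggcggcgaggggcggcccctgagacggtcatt
Creld2, chr15:88819396-88819645, plus strand: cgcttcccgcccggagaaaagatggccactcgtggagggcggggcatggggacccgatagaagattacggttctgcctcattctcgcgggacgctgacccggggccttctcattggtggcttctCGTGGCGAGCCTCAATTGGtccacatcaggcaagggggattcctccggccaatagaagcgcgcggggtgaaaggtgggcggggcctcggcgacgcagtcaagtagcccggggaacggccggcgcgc
Calr, chr8:84846932-84847181, minus strand: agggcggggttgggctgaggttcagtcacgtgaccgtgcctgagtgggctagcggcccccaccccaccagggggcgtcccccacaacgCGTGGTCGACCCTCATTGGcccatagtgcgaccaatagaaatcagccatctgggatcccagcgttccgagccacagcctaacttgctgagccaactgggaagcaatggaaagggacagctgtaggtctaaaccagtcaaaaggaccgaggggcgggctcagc
Hsp90b1, chr10:86705445-86705694, minus strand: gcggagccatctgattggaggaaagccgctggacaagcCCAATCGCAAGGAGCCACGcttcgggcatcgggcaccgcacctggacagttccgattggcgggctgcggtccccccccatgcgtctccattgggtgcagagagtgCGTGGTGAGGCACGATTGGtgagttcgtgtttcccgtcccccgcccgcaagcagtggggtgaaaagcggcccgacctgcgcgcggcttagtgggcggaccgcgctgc

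Of the 29 heat shock genes, 23 had an entry in the promoter set, and 9 of these (39.1%) held GAANNTTC against 6.69% of all 32851 promoters. Among the 9, 4 rose, 1 fell and 4 were not called, and among the 14 without it 6 rose and 8 were not called. Of the 21 ER genes, 18 had an entry, and 8 (44.4%) held the ER stress element against 0.113% of all promoters. Among these 8, 4 rose and 4 were not called, and among the 10 without it 5 rose and 5 were not called. A list gene was counted if any of its entries held the element, whereas the shares of all promoters count single entries. The percentages of genes and of promoters are therefore unlike measures.

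Hspa1a and Hspb1, like the co-chaperone Dnaja1, carry the capitals above. Hspa1a, the inducible Hsp70, stood at 1.47, 2.99 and 5.205 CPM in the controls and 298, 12.9 and 32.9 CPM in the mutants, and Hspa1b, a near-identical neighbour between which the authors' counting may have split reads, at 1.67, 1.77 and 4.53 CPM in the controls and 215, 8.93 and 24.2 CPM in the mutants. Mutant 1 was far above the other mutants for both. Their log2 fold changes were 5.17 ± 1.18 and 4.97 ± 1.19, against 2.86 and 2.67 without mutant 1, and Hspa1b moved to 5.58 without control 3. Both calls were lost on leaving out control 1, control 2 or control 3 (highest adjusted p, 0.0833). The 7-month libraries alone gave them adjusted p-values of 0.0825 and 0.0888, and limma-voom 0.101 and 0.126. Dnaja1 was steadier, at 60.8, 68.03 and 77.96 CPM in the controls and 342, 158 and 209 CPM in the mutants (log2 1.78 ± 0.23, adjusted p = 6.27e-04). Hsph1 rose by log2 1.86 (1.204 without mutant 1), Hsp90aa1 by 1.69, Dnajb1 by 1.69 and Hspb1 by 1.42. Hspa8, the constitutive Hsp70, stood at 1368, 1500.1 and 1695 CPM in the controls and 2873, 2026 and 2196 CPM in the mutants. The mitochondrial chaperonin Hspd1 was the 1 that fell, by 0.34 on the log2 scale, a call lost on leaving out control 2, control 3, mutant 1 or mutant 3 (highest adjusted p, 0.137).

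In the ER list the changes were smaller. Sdf2l1, a co-chaperone, stood at 3.22, 3.26 and 4.03 CPM in the controls and 11.1, 8.02 and 8.61 CPM in the mutants (a 2.64-fold rise, adjusted p = 5.10e-04). Creld2, whose element is shown above, stood at 9.96, 9.85 and 12.1 CPM in the controls and 26.3, 15.1 and 17.6 CPM in the mutants (log2 0.89), Manf at log2 0.81 and the disulfide isomerase Pdia4 at 0.71. Calreticulin, Calr, and Hsp90b1 rose by log2 0.38 and 0.36, and the master chaperone Hspa5 stood at 0.22, not called. The count of rises was 6 without mutant 1, when the calls of Calr and Hsp90b1 were among those lost. The call of Calr was also lost on leaving out control 3, and that of Hsp90b1 without control 1, control 2 or mutant 3 (highest adjusted p, 0.0790). Of 26 tested genes of the integrated stress response, through which Atf4 drives amino acid and one-carbon genes, 8 rose and 2 fell. Atf4 stood at 94.5, 78.99 and 89.2 CPM in the controls and 158, 109.7 and 136 CPM in the mutants (log2 0.62). Nupr1, a stress-induced chromatin protein, rose by log2 1.62, the mitochondrial folate enzyme Mthfd2 by 0.92 and the serine synthesis enzyme Psat1 by 0.76. Trib3 and Chac1, other targets of Atf4, were not called. The count of falls in this list was 1 without control 3 and 0 without mutant 1.

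Fuel oxidation genes fell in large numbers. Of 24 tested fatty acid oxidation genes 21 fell and none rose, of 21 for the use of ketones and branched-chain amino acids 18 fell and none rose, and of 18 genes of the tricarboxylic acid (TCA) cycle 15 fell and none rose. Median log2 fold changes were -0.61, -0.69 and -0.51. Of the 54 genes that fell in these lists, 53 had their highest mutant value in mutant 2. Acadm, the medium-chain dehydrogenase, stood at 1032, 1356 and 1149 CPM in the controls and 530.1, 862 and 596 CPM in the mutants (log2 -0.83 ± 0.17, adjusted p = 0.00600). Etfdh, which passes electrons from these dehydrogenases to the respiratory chain, stood at 462, 644 and 553 CPM in the controls and 230.2, 359.8 and 259 CPM in the mutants (log2 -0.97 ± 0.17). Ech1, an auxiliary enzyme of the pathway, fell by 0.92, and the carnitine transferase Cpt1b, its entry gate, by 0.34 on the log2 scale.

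Bdh1, the mitochondrial ketone enzyme, had the sharpest fall of the ketone list, at 119, 92.9 and 113 CPM in the controls and 30.3, 25.2 and 30.96 CPM in the mutants (log2 -1.91 ± 0.14, adjusted p = 1.26e-05). Ppm1k, the phosphatase that activates branched-chain oxidation, stood at 109.8, 125 and 119 CPM in the controls and 34.5, 66.6 and 44.2 CPM in the mutants (log2 -1.29 ± 0.18, adjusted p = 8.73e-04). Dbt and Aldh6a1, enzymes of that oxidation, fell by 1.01 and 1.03 on the log2 scale. Sucla2 and Idh2 of the TCA cycle stood at log2 -0.81 and -0.76, and Idh2 at 2574, 2151 and 2159.6 CPM in the controls and 1203, 1576 and 1297 CPM in the mutants. Ehhadh, a peroxisomal oxidation enzyme, fell by 1.42 on the log2 scale. The calls of Cpt1b (control 2, control 3, mutant 1 or mutant 3) and Aldh6a1 (control 2, control 3 or mutant 3) were lost when 1 library was left out (highest adjusted p, 0.129). Falls in fatty acid oxidation numbered 13 without mutant 1, in ketone and branched-chain use 11 without mutant 3, and in the TCA cycle 7 without control 3, 6 without mutant 1 and 5 without mutant 3.

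**Figure D5:**
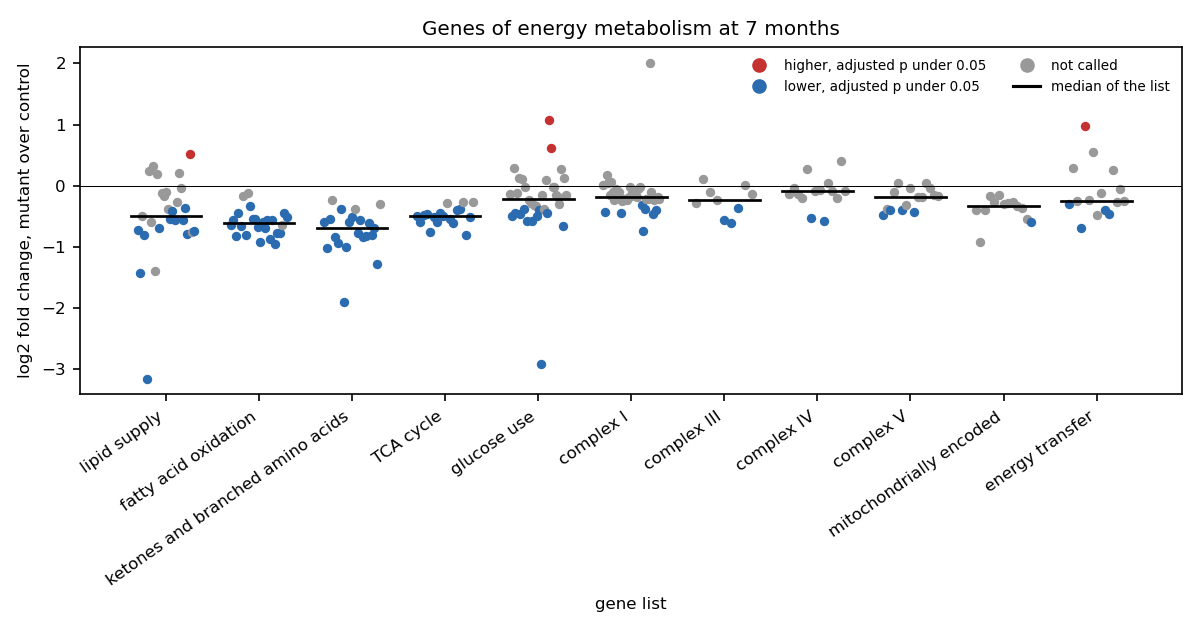
Log2 fold change, mutant over control at 7 months, of each tested gene in 11 lists of energy metabolism, with a black line at each list's median. The medians of fatty acid oxidation, ketone and branched-chain amino acid use and the TCA cycle lie at -0.61, -0.69 and -0.51, below those of the respiratory complexes, and the highest grey point is Ndufs5, which was high in mutant 2 alone.

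Uptake and storage of fat followed in part, with 12 of 27 tested genes lower and 1 higher. Acsm5, an acyl-CoA synthetase, stood at 2.27, 3.93 and 2.47 CPM in the controls and 0.156, 0.496 and 0.307 CPM in the mutants (log2 -3.16 ± 0.41, adjusted p = 4.45e-04). Slc27a1, a fatty acid transporter, fell by 0.80 and Lpl, lipoprotein lipase, by 0.42 on the log2 scale. The count of falls was 5 without control 2, 4 without mutant 1 and 6 without mutant 3. The count of rises was 0 without control 3 or mutant 3, and the call of Lpl was lost on leaving out control 1, control 2, mutant 1 or mutant 3 (highest adjusted p, 0.0939).

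Glucose genes moved in both directions. Of 34 tested, 11 fell and 2 rose (38.2% called, against 19.1% of all rows). Pfkfb1, a bifunctional regulator of glycolysis, showed the largest fall among genes reaching 10 CPM, at 23.7, 20.8 and 24.7 CPM in the controls and 1.53, 4.598 and 2.96 CPM in the mutants (log2 -2.93 ± 0.28, adjusted p = 9.17e-05). Slc2a4, the insulin-responsive transporter, stood at 432, 378 and 418 CPM in the controls and 225, 309.6 and 239.8 CPM in the mutants (log2 -0.67 ± 0.12). Pfkp, the platelet-type phosphofructokinase, rose at 33.1, 38.3 and 39.1 CPM in the controls and 87.99, 65.6 and 79.4 CPM in the mutants (log2 1.08 ± 0.13, adjusted p = 2.80e-04), and Pgam1, the non-muscle phosphoglycerate mutase, by log2 0.61. The count of falls was 4 without mutant 1 or mutant 3. Among 15 tested genes of energy transfer 4 fell and 1 rose (33.3% called, against 19.1% of all rows), with a median log2 fold change of -0.25. The gene that rose, the brain creatine kinase Ckb, stood at 37.4, 32.5 and 38.3 CPM in the controls and 86.9, 57.9 and 67.1 CPM in the mutants (log2 0.97 ± 0.17). The falls numbered 1 without control 1, control 3, mutant 1 or mutant 3 and 7 without mutant 2, and the rises 2 without control 1.

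Smaller shares of the respiratory chain genes were called. Of 36 tested complex I genes 7 fell, of 9 complex III genes 3, of 14 complex IV genes 2 and of 15 complex V genes 4, and none rose. The shares called were 19.4%, 33.3%, 14.3% and 26.7%, against 19.1% of all rows either way and 9.22% lower. Median log2 fold changes ran from -0.24 for complex III to -0.08 for complex IV. Ndufs1 of complex I, Uqcrc2 of complex III and Cox7a1 of complex IV stood at log2 -0.74, -0.62 and -0.58. Ndufs5 stood at 9.396, 6.47 and 7.65 CPM in the controls and 5.93, 82.1 and 6.92 CPM in the mutants, high in mutant 2 alone. Of 13 tested mitochondrially encoded genes, mt-Nd6 alone was called (log2 -0.60). Falls in complex I numbered 4 without control 1 or control 2, 2 without control 3 or mutant 3 and 1 without mutant 1, in complex IV 1 without control 3 or mutant 1, in complex V 2 without control 1 and 0 without control 3, mutant 1 or mutant 3, and among mitochondrially encoded genes 6 without control 1 and 0 without control 2, control 3, mutant 1 or mutant 3. The calls of Cox7a1 and mt-Nd6 were both lost on leaving out control 3 or mutant 1, and that of mt-Nd6 on leaving out control 2 or mutant 3 (highest adjusted p, 0.108). Among 21 tested regulators of mitochondrial genes 8 fell and none rose, with Esrrb at log2 -0.64. Ppargc1a, the coactivator of oxidative metabolism, stood at 17.2, 45.8 and 42.96 CPM in the controls and 8.53, 20.5 and 10.2 CPM in the mutants and was not called (log2 -1.44 ± 0.47, adjusted p = 0.0637), with control 1 below mutant 2. The regulators that fell numbered 2 with mutant 3 left out, 3 with mutant 1 left out, 4 with control 3 left out and 5 with control 2 left out.

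Cell cycle genes rose, most of them at low levels. Of 35 tested, 13 rose and none fell. The cell cycle inhibitor Cdkn1a had the largest fold change of them, at 12.9, 17.9 and 14.6 CPM in the controls and 54.2, 31.3 and 41.4 CPM in the mutants (log2 1.48 ± 0.19, adjusted p = 5.11e-04). The mitotic genes Cdk1, Ccnb1 and Aurkb rose by log2 1.12, 1.18 and 1.32, from 1.905, 2.65 and 2.41 to 6.45, 4.21 and 4.501 CPM for Cdk1. The count was 6 without control 3, 5 without mutant 1 and 7 without mutant 3. The calls of Ccnb1 and Aurkb were lost on leaving out mutant 1 or mutant 3 and that of Aurkb without control 3 (highest adjusted p, 0.0598).

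Developmental transcription factors, a class that PRC2 is known to silence, rose in 7 of 38 tested cases and fell in none. The share called, 18.4%, was made up of rises alone. Of all tested rows, 9.83% were called higher and 19.1% were called either way. A part of PRC2 in these rises was not tested. DESeq2 called 3 rises, and edgeR called 2 falls without control 1 and 1 without mutant 1. Meox1, known from activated fibroblasts, stood at 8.73, 11.01 and 10.4 CPM in the controls and 46.8, 19.8 and 26.7 CPM in the mutants (log2 1.63 ± 0.26, adjusted p = 0.00241). Sox9, a cartilage and valve factor, stood at 1.31, 1.71 and 1.91 CPM in the controls and 5.07, 2.55 and 4.54 CPM in the mutants (log2 1.301 ± 0.27), Tbx15 at 0.180, 0.0830 and 0.0294 CPM in the controls and 0.711, 0.293 and 0.725 CPM in the mutants and Prrx2 at 0.0257, 0.166 and 0.0882 CPM in the controls and 2.18, 0.473 and 0.922 CPM in the mutants, all below 10 CPM. The log2 fold change of Prrx2 was 3.65, 2.896 without mutant 1 and 4.36 without control 2, and that of Tbx15 was 2.495, and 3.27 without control 1. Of 25 tested cardiac factors 5 fell and 1 rose (24% called, against 19.1% of all rows). Klf15, a regulator of cardiac metabolism, stood at 29.2, 19.9 and 22.6 CPM in the controls and 12.9, 17.6 and 9.73 CPM in the mutants (log2 -0.83 ± 0.19) and the thyroid hormone receptor Thrb at 11.4, 12.4 and 12.6 CPM in the controls and 6.91, 8.38 and 6.21 CPM in the mutants (log2 -0.76 ± 0.17). That count of falls was 2 without control 2, mutant 1 or mutant 3, and of rises 0 without control 2, control 3, mutant 1 or mutant 3, while the developmental factors that rose numbered 11 without mutant 2.

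Smaller lists held single genes of note. Of 27 tested redox genes 7 rose and 2 fell (33.3% called, against 19.1% of all rows). Nox4, an oxidase that makes hydrogen peroxide, stood at 0.875, 1.44 and 0.912 CPM in the controls and 9.62, 2.01 and 3.12 CPM in the mutants (log2 2.19, and 1.27 without mutant 1). Heme oxygenase Hmox1 rose by log2 1.04 and secreted glutathione peroxidase Gpx3 by 0.92. Mitochondrial superoxide dismutase Sod2 and the transhydrogenase Nnt fell by 0.60 and 0.65 on the log2 scale. The call of Nox4 was lost on leaving out control 3, and that of Nnt on leaving out control 2, control 3, mutant 1 or mutant 3 (highest adjusted p, 0.0958). Of 18 tested imprinted genes 3 fell and 1 rose (22.2% called, near the 19.1% of all rows). Snrpn, a splicing protein gene expressed from the paternal copy, stood at 42.04, 43.6 and 46.5 CPM in the controls and 21.1, 30.3 and 23.1 CPM in the mutants (log2 -0.83 ± 0.14, adjusted p = 0.00151). Zim1, a zinc finger gene, was called at 9, 21 and 14 counts in the controls and 1, 2 and 1 counts in the mutants. The count of imprinted rises was 0 without mutant 1 or mutant 3 and 3 without mutant 2. Among 30 tested growth factor genes 7 rose and 3 fell (33.3% called, against 19.1% of all rows). Igfbp7, a secreted binding protein, stood at 124, 119 and 121 CPM in the controls and 357, 183 and 260.2 CPM in the mutants (log2 1.13 ± 0.18). Angpt1, the ligand of the endothelial receptor Tie2, stood at 19.7, 28.2 and 29.8 CPM in the controls and 8.93, 13.9 and 9.11 CPM in the mutants (log2 -1.28 ± 0.19, adjusted p = 0.00101). Of 22 tested immediate early genes 5 rose and none fell (22.7% called, against 19.1% of all rows either way and 9.83% higher). The nuclear receptor Nr4a3 stood at 1.44, 1.22 and 3.82 CPM in the controls and 15.8, 5.95 and 4.24 CPM in the mutants (log2 2.01) and Myc at 1.96, 1.74 and 1.88 CPM in the controls and 4.91, 2.998 and 4.15 CPM in the mutants (log2 1.11). Nr4a3 stood at log2 2.699 without control 3 and 1.26 without mutant 1, and its call was lost on leaving out mutant 1, control 1 or control 2 (highest adjusted p, 0.0806). Immediate early genes that rose numbered 10 with mutant 2 left out, 1 with mutant 1, 3 with control 2, and 2 with control 1 or control 3 left out, and growth factor genes that rose 4 without control 2, mutant 1 or mutant 3.

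Other genes with large changes belong to various pathways. Nmrk2, a kinase that salvages nicotinamide riboside for NAD synthesis, stood at 4.35, 4.42 and 6.53 CPM in the controls and 50.8, 16.6 and 29.8 CPM in the mutants (log2 2.67 ± 0.42, adjusted p = 0.00308). Plekha7, an adherens junction protein, rose and was lowest in mutant 1, at 1.85, 1.66 and 3.26 CPM in the controls and 5.31, 19.02 and 13.8 CPM in the mutants (log2 2.496 ± 0.45). Clu, the secreted chaperone clusterin, gained 2.16-fold (adjusted p = 3.07e-04). Downward, Ppip5k2, a kinase that makes inositol pyrophosphates, stood at 126, 119 and 129.8 CPM in the controls and 23.7, 49.9 and 34.1 CPM in the mutants (log2 -1.800 ± 0.20, adjusted p = 2.80e-04). Amy1, amylase, fell by 1.72 on the log2 scale at 24.97, 20.8 and 21.00 CPM in the controls and 6.27, 6.33 and 7.71 CPM in the mutants (adjusted p = 1.29e-05). Phkg1, the muscle phosphorylase kinase subunit, and Wnk2, a kinase, fell by 1.51 and 1.39, and Tbc1d10c and Arhgap20, both regulators of small GTPases, by 1.54 and 1.38 on the log2 scale. Ift81, of intraflagellar transport, stood at 112, 56.6 and 132 CPM in the controls and 30.8, 48.1 and 38.1 CPM in the mutants, with control 2 nearest the mutants (log2 -1.36, adjusted p = 0.0112, and 0.0521 without mutant 1). Losses in CPM were led after Myh6 by mt-Nd6, Atp2a2, Tnni3, Slc25a4, the ATP-ADP exchanger, Atp5a1, Lpl and Idh2. The calls of Slc25a4 and Atp5a1 were lost on leaving out control 3, mutant 1 or mutant 3 (highest adjusted p, 0.0827), and that of Slc25a4 also without control 1.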

How the data were processed

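Gene-level tables of 2 sequencing lanes per library were used. Per the file headers, each holds RSEM's expected counts and TPM per gene, and per the submitters' processing notes Bowtie 1.1.2 and RSEM 1.3.0 were run against GRCm38.p6. Libraries came from a stranded poly-A kit, per the labels' protocols, and whether counting used strand was not given in the sources. The deposited expected counts of both lanes were summed and rounded, with coding (NM) and non-coding (NR) rows of a symbol kept apart. The deposited TPM values, averaged over lanes, served only for shares and levels between genes.

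All 12 libraries were fitted in edgeR 4.0.16 (R 4.3.3) with 4 group means, TMM scaling and the robust quasi-likelihood F test. Rows had to pass filterByExpr with a minimum count of 10, which left 15478 of 25098 rows. P-values were adjusted over all rows by the Benjamini-Hochberg method with a threshold of 0.05. CPM values are TMM-scaled. The contrast of contrasts between 7 months and P10 came from the same fit. One P10 control held 241419 counts. Shares were compared by exact permutation. The fit was tested on simulated counts. Alternatives were DESeq2 1.42.0, limma-voom 3.58.1, RLE scaling, other filters, other sets of libraries, a replicate block and each 7-month library left out. Leaving out control 1 and mutant 1 together was chosen after seeing the data.

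The genes and lists were chosen with earlier results of these data known. Named genes were Jarid2, Nppa, Nppb, Myh6 and Myh7, the 15 largest called changes each way without overlap among genes with a group mean of at least 10 CPM and a gene name, the 8 largest gains and losses in CPM, and up to 8 members of a described list, called ones first. Some genes are not reported here, but counts over lists include them. Markers of lymphatic, endocardial, epicardial, fat, red and skeletal muscle cells had 1, 1, 0, 0, 0 and 0 calls, the endocardial one lost on leaving out any heart but mutant 2. Without control 1 the red cell and skeletal muscle lists had 5 and 1 calls, and the lymphatic list 1 fall more.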

Additional observations from a re-analysis of the deposited data

Results flagged for a closer look

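The effect of the genotype at 7 months differed from that at P10 for 22 of the 34 genes named for size or as heart and target genes, by the interaction contrast of the 12-library edgeR fit (adjusted p under 0.05). Over all rows this contrast called 1454 (9.39%). Most of these genes were chosen for their change at 7 months, so the differences are described and support nothing further. Values are the log2 effect at 7 months minus that at P10. Among heart and target genes it was -0.65 for Jarid2 (log2 effect at P10 0.10), 3.85 for Nppa (P10 -0.13), 1.98 for Nppb (P10 0.48) and -1.02 for Myh6 (P10 0.22). At P10 the adjusted p of these 4 effects ran from 0.556 (Myh6) to 0.945 (Nppa).

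Among genes that rose, the difference was 3.73 for Ltbp2, 3.35 for Cilp, 3.26 for Mfap4, 3.14 for Adamtsl2, 3.05 for Timp1, 3.03 for Postn, 2.85 for Nmrk2, 2.703 for Kcne1 and 2.61 for Mfap5. Among genes that fell, it was -2.34 for Pfkfb1, -2.23 for Myot, -1.84 for Ppip5k2, -1.84 for Kcnj2, -1.66 for Bdh1, -1.59 for Ehhadh, -1.49 for Wnk2, -1.04 for Amy1 and -1.04 for Arhgap20. At P10 the log2 effects of Cilp, Kcne1 and Kcnj2 were 0.57, 0.25 and 0.40.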

How the results depend on the processing

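The count of calls, 2949, was 1897 with DESeq2 (856 lower) and 1826 from the 7-month libraries alone (938 higher, 888 lower). It stayed within 1.5 times under limma-voom, RLE scaling, other filters, summed rows, the fit without P10 control 2 and that without mitochondrial and globin rows. Leaving out 1 library gave 1638 to 3330 calls, 907 to 1718 higher and 691 to 1714 lower. The count for the difference between ages, 1454, ran from 456 to 2543 and was 850 with the replicate block. Same-numbered hearts correlated at 0.022, 0.109 and -0.013 in their deviations from the group means and were not treated as pairs. The replicate block gave 2486 calls. The globin share, 0.406% ± 0.382 in controls (SD, n = 3) and 0.483% ± 0.053 in mutants (SD, n = 3), differed by 0.077 percentage points (exact two-sided permutation test, p = 0.9), and by -0.0262 without control 2, -0.0398 without control 3 and 0.298 without control 1, which alone stood at 0.847%. No gene named for its size or in a list changed direction with a call under any alternative, but calls were lost. With the 7-month libraries fitted alone, fewer samples than in the 12-library fit, 55 of 247 such genes lost their call (adjusted p from 0.0520 to 0.121). They included Kcnd2, Scn4b, Chrm2, Atp2a2, Acta1, Mylk3, Des, Dsp, Ctgf, Dkk3, Col12a1, Lox, Tgfb3, Ccl8, Kdr, Hspa1a, Hspa1b, Hsph1, Dnajb1, Hspb1, Cpt1b, Aldh6a1, Lpl, Klf15, Nox4, Ccnb1, Aurkb, Jag2 and Nr4a3. In that fit the falls numbered 7 in the TCA cycle, 7 in glucose use, 7 in lipid supply, 4 in calcium handling, 3 in complex I, 0 in complex V, 2 among filaments, 2 among cardiac factors, and 1 each in energy transfer and among imprinted genes. The rises numbered 6 among heat shock genes, 6 in the cell cycle, 5 in the Wnt list, 4 each among TGF-β and BMP genes, integrins and growth factors, 3 among channels, and 1 each among immediate early and Z-disc genes. DESeq2 ended the calls of 16 genes (adjusted p up to 0.239), Kdm6a, Kdm6b, Jag2, Itpr2, Scn4a, Kcnd3, Gja5, Kcna5, Chrm2, Ltbp1 and Mthfd2 among them, and left 4 integrins and 3 channels risen. Limma-voom ended 14 (up to 0.174), with Dkk3, Hspa1a, Hspa1b, Kdm6a, Tnni1, Col11a1, Col12a1, Sfrp2 and Nox4, and gave 8 cell cycle and 5 Wnt rises, 5 Z-disc rises and 5 endothelial falls. The replicate block ended 20 (up to 0.208), with Ift81, Acta1, Hspa1a, Hspa1b, Hsph1, Dnajb1, Hspd1, Ctgf, Rcan1, Pkp2, Kcna5, Col12a1, Ltbp1, Lox, Ccl8 and Nr4a3, and left 4 complex I falls and 2 immediate early rises. Directions in which a list had no call gained 1 or 2 calls in single fits without 1 heart: falls among developmental factors, integrins, TGF-β and BMP, cell cycle, matrix enzyme, nerve marker and ER genes, and a rise in complex IV. With 2 hearts left in a group, the spread is estimated over all groups together, and that group contributes less to it.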
